A study of Mus musculus with 11 samples.

Results

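The 33 genes described here encode the homologous recombination machinery, the Fanconi anaemia pathway and the DNA damage checkpoint kinases. They were taken by symbol and function from a list drawn up with earlier results of these data known, and all 33 were among the 24411 genes with deposited values. Each was measured in neuroblastomas from mice homozygous for Th-MYCN, in which the tyrosine hydroxylase promoter drives MYCN in the sympathetic lineage and tumours arise spontaneously. All groups share this transgene, no age, sex or strain is labelled, and each library holds the RNA of a whole tumour with its host cells. Mice bearing a tumour of about 5 mm received 1 dose, and tumours were taken 16 h later. Vehicle was given intraperitoneally (n = 3), CBL0137, a DNA-binding curaxin that acts on the histone chaperone FACT, intravenously at 40 mg/kg (n = 3), and panobinostat, an inhibitor of histone deacetylases, intraperitoneally at 5 mg/kg (n = 2). The fourth group received both drugs (n = 3, here the combination). A vehicle group dosed intravenously was not analysed here, so in comparisons with vehicle CBL0137 and its route cannot be told apart. The study names 3 mice per group. Panobinostat replicate 2 was not analysed here.

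Homologous recombination repairs a DNA double-strand break by copying the sister chromatid. The broken ends are first resected, RPA coats the single strand, and BRCA1, PALB2 and BRCA2 then promote the search for the matching sequence. The Fanconi anaemia proteins remove crosslinks between DNA strands and hand the resulting break to the same machinery, while ATM and ATR sense damage or stalled forks and signal through CHK2 and CHK1. Many of these genes are transcribed mainly in cells that are replicating their DNA, and MYCN-driven tumours, which replicate under stress, are known for a reliance on ATR and CHK1.

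The tumour identity and the host content of the libraries were checked with marker genes before the results. None of the 13 neuroblast markers was at 0 throughout any group, and their summed abundance was 1566 to 1839 TPM (transcript abundance scaled to a fixed library total) after vehicle, 2150 to 2538 after CBL0137, 1296 to 1520 after panobinostat and 907 to 1799 after the combination. Against vehicle, 8 of these 13 fell and 2 rose after the combination. Macrophage markers summed to 386 to 460 TPM after vehicle, 1021 to 2062 after CBL0137, 2641 to 3455 after panobinostat and 4835 to 6707 after the combination. All 15 rose after panobinostat and after the combination, and 11 rose after CBL0137. Fibroblast markers ran from 334 to 536 TPM after vehicle, 747 to 1717 after CBL0137, 3447 to 4077 after panobinostat and 5015 to 5983 after the combination, with 13 of 13, 13 of 13 and 3 of 13 risen after panobinostat, the combination and CBL0137. Endothelial markers, all 10 risen after panobinostat and the combination and 3 after CBL0137, summed to 50.5 to 83.9, 109 to 255, 265 to 301 and 489 to 929 TPM in the order vehicle, CBL0137, panobinostat and combination. No macrophage, fibroblast or endothelial marker was at 0 throughout a group. Several libraries stood apart. Adrenal cortex markers summed to 7152 TPM in combination replicate 2 and to no more than 30.6 elsewhere, and kidney markers reached 424 TPM in vehicle replicate 2. Skeletal muscle markers summed to 9736 TPM in panobinostat replicate 3, 728 in combination replicate 1, 578 in CBL0137 replicate 2 and at most 66.6 in the others. B cell markers reached 164.9 TPM in CBL0137 replicate 3 and at most 68.2 in the others. Where leaving out a library changed a printed median or a number of calls over the 33 genes by over 1.5 times, the value without it is given. The part of host cells in the results below was not tested.

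Most of the 33 genes were less abundant after the combination, and none was more abundant in any comparison past the threshold, an adjusted p of 0.05 in limma over 15497 genes. Against vehicle, 25 of 33 fell and 0 rose after the combination, beside 30.1% of all genes that fell and 35.9% that rose. The median change of the 33 was -1.04 on the log2(TPM + 1) scale, on which all changes here are given, and that of all tested genes was 0.08. After panobinostat alone 9 of 33 fell, beside 16.9% of all genes that fell and 25.5% that rose, with a median of -0.49 against 0.10 for all genes. After CBL0137 alone limma called 0 of 33 in either direction, beside 1.13% of all genes that fell and 4.99% that rose. Of the 33, 6 were lower after CBL0137 at an unadjusted p below 0.05 and 0 higher, the shares of all genes being 10.6% and 13.9%. Their median there was -0.27 against -0.01, and -0.18 without vehicle replicate 1. In bulk tumour RNA, fewer neuroblastoma cells and less RNA of these genes per cell cannot be told apart. The 3 comparisons share the same vehicle libraries.

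The order of the groups was much the same from gene to gene. Vehicle had the highest mean TPM for 29 of 33 genes and the combination the lowest for 27 of 33. Panobinostat lay below CBL0137 for 25 of 33, though limma called 0 of 33 in that comparison. How many of all genes had these orders was not counted. The exceptions at the low end were Atm, Fancg, Rad50, Nbn, Rbbp8 and Slx4. Vehicle means spanned 5.82 TPM (Xrcc3) to 126 TPM (Topbp1), with a median of 17.5 TPM, and the lowest value of any member in any library was 2.21 TPM (Fanca). All 33 therefore passed the filter on low values in every group. All libraries of the combination lay below all those of vehicle for 27 of 33 genes (32.4% of all genes), those of panobinostat for 22 (27.8%) and those of CBL0137 for 10 (19.1%).

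**Figure D1:**
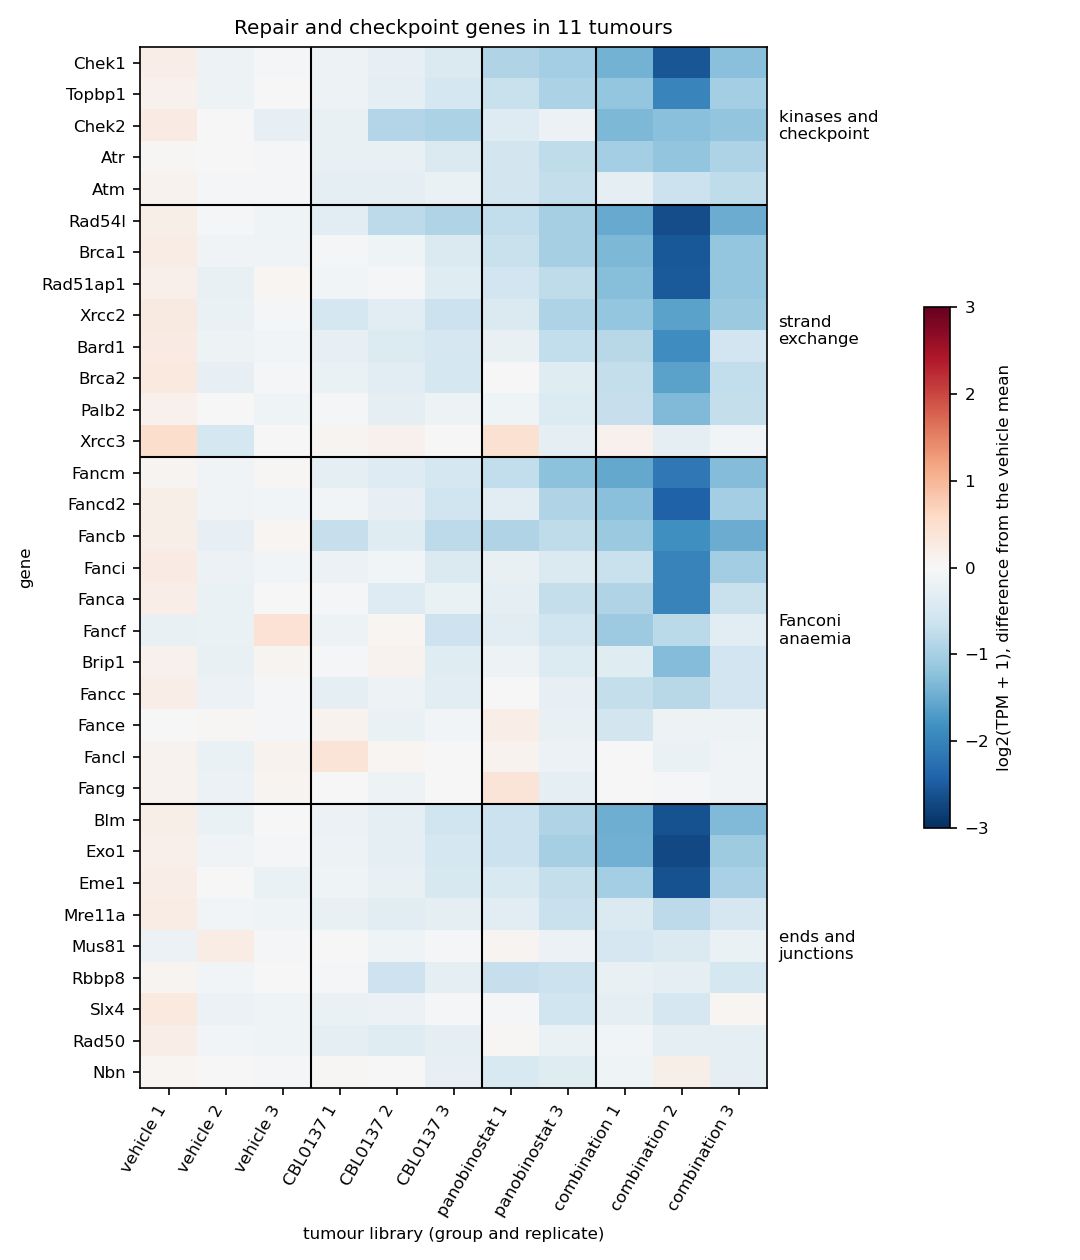
Abundance of the 33 genes (rows, by role) in the 11 tumours (columns), as the difference of log2(TPM + 1) from the vehicle mean; blue is lower and red higher. The combination columns are the darkest blue, with combination replicate 2 the lowest of its group for 24 of 33 genes.

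Combination replicate 2, the library with adrenal cortex RNA, was the lowest of its group for 24 of the 33 genes. Its median difference from the vehicle mean over the 33 was -1.31, against -0.83 in replicate 1 and -0.75 in replicate 3. The other groups spanned 0.18 to -0.15 (vehicle), -0.15 to -0.43 (CBL0137) and -0.34 to -0.68 (panobinostat), so that every combination library lay below every other one. Without combination replicate 2, 22 of 33 genes still fell against vehicle, the calls lost being Brip1, Fancf and Mus81, and the median change of the 33 was -0.73. Of the 25 calls, 22 held whichever of the 11 libraries was left out.

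**Figure D2:**
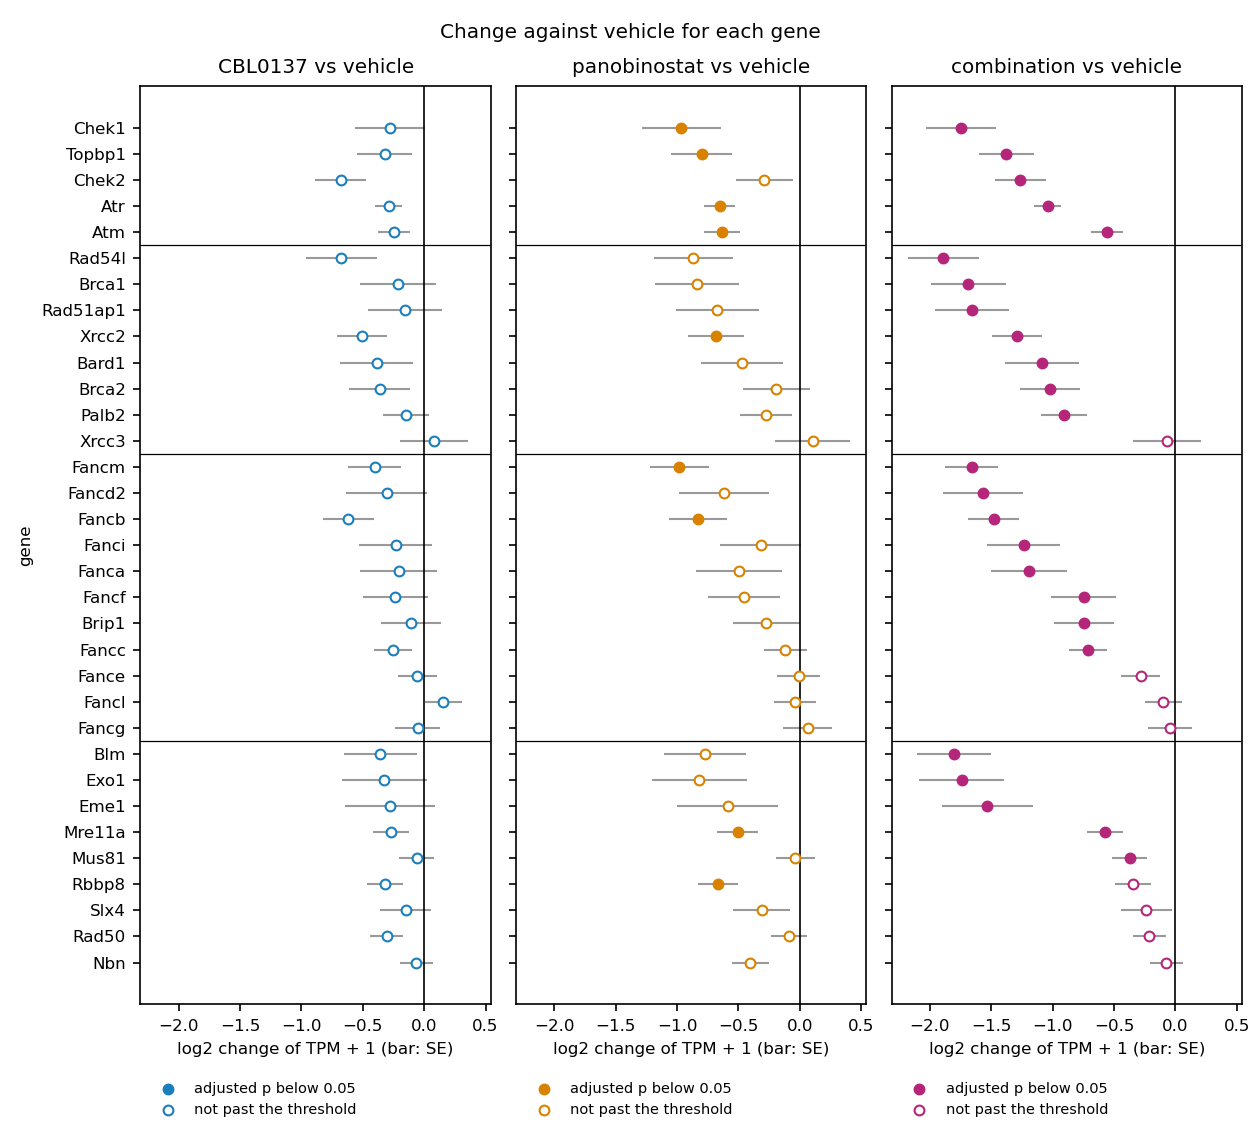
Change of each gene against vehicle on the log2(TPM + 1) scale with its SE, in panels for CBL0137, panobinostat and the combination. Filled points passed an adjusted p of 0.05 in limma, which held for 0, 9 and 25 of the 33 genes.

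The promoters of the members were read for words known from binding sites of regulators of genes expressed in S and G2 phase. RefSeq promoters of GRCm38.p6, running from 250 bases before to 50 after the start, matched 27 of the 33 symbols. The E2F words TTTCCCGC, TTTGGCGC, TTTCGCGC and TTTGCCGC, on either strand and none containing another searched motif, were present in 5 of 27 (18.5%), against 2.32% of all 27025 promoters. An E2F word was in 4 of 22 genes that fell after the combination and in 1 of 5 that were not called, which are similar shares. The 4 were Chek2, Topbp1, Brca2 and Bard1, and the gene not called was Fancg. The CHR word TTTGAA was in 2 of 27 (7.41%), Bard1 and Eme1, against 18.1% of all promoters. The word CCAAT was in 17 of 27 (63.0%) against 37.9%, in 14 of 22 genes that fell and in 3 of 5 that were not called. A match is a description of letters, not a site, and its part in the changes was not tested. The stretches with an E2F word of the genes that fell are shown 5′ to 3′ on the gene's strand with that word in capitals, followed by Rad54l and Brca1, the strand exchange genes with the largest changes, with CCAAT in capitals.
Chek2 (chr5:110839795-110839874, plus strand): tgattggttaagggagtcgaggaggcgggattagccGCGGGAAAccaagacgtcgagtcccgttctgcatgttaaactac
Topbp1 (chr9:103305162-103305214, plus strand): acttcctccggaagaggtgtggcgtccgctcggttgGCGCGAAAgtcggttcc
Brca2 (chr5:150522417-150522496, plus strand): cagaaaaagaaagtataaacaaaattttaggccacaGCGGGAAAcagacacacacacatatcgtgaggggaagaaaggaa
Bard1 (chr1:71103147-71103217, minus strand): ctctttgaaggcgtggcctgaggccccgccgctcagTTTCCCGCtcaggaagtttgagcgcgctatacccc
Rad54l (chr4:116123700-116123776, minus strand): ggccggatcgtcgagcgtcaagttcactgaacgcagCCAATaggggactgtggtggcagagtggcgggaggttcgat
Brca1 (chr11:101552001-101552077, minus strand): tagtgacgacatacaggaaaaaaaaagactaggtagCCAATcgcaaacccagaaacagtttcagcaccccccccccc
Chek2, Topbp1, Brca2 and Bard1 fell by 1.26, 1.38, 1.02 and 1.09 after the combination, and Fancg, which also holds an E2F word, was at -0.05.

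The damage kinases and their activator fell as a whole after the combination, 5 of 5 with a median of -1.26. After panobinostat 4 of 5 fell, all but Chek2. Of all genes, 30.1% fell after the combination and 16.9% after panobinostat. Chek1 (chr9:36708482-36727065) encodes CHK1, the kinase that restrains origin firing and mitosis when ATR is active. It stood at 38.8, 30.1 and 32.8 TPM after vehicle, 30.4, 28.1 and 24.6 after CBL0137, 17.5 and 16.1 after panobinostat, and 11.9, 4.88 and 13.6 after the combination. Panobinostat and combination libraries were all below all vehicle libraries, and the combination was below panobinostat too, while CBL0137 overlapped vehicle. Its change was -1.75 ± 0.29 (SE, adjusted p = 0.00041) after the combination, -0.97 ± 0.32 (adjusted p = 0.0348) after panobinostat and -0.28 ± 0.29 (adjusted p = 0.587) after CBL0137. Without combination replicate 2 the first of these was -1.34.

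Atr (chr9:95857597-95951781), the kinase that responds to RPA-coated single strands, had the lowest adjusted p of the 33. Its values were 35.9, 35.4 and 33.3 TPM after vehicle, 29.8, 29.8 and 25.6 after CBL0137, 23.4 and 20.3 after panobinostat, and 16.7, 14.9 and 17.9 after the combination. The 4 groups did not overlap at all, in that order. Atr changed by -1.04 ± 0.11 (SE, adjusted p = 3.11e-05) after the combination and by -0.65 ± 0.12 (adjusted p = 0.00289) after panobinostat, and the value after CBL0137 was -0.29 ± 0.11 (adjusted p = 0.148). Topbp1, whose product switches ATR on and whose promoter holds an E2F word, was at 139, 112 and 128 TPM after vehicle, 112, 103 and 87.2 after CBL0137, 79.3 and 65.2 after panobinostat, and 56.1, 31.4 and 61.8 after the combination. Its panobinostat and combination libraries all lay below vehicle without touching each other, and CBL0137 replicate 1 overlapped vehicle by a small margin. Topbp1 fell by 1.38 ± 0.22 (SE, adjusted p = 0.000376) after the combination and by 0.80 ± 0.25 (adjusted p = 0.0274) after panobinostat.

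Atm and Chek2 form the arm that responds to double-strand breaks. Atm (chr9:53439149-53536740), the kinase recruited to broken ends, was at 30.7, 27.6 and 27.6 TPM after vehicle, 23.7, 23.6 and 24.6 after CBL0137, 19.1 and 17.2 after panobinostat, and 23.5, 18.1 and 16.5 after the combination. The combination overlapped panobinostat, and both lay below vehicle. The changes were -0.55 ± 0.13 (SE, adjusted p = 0.00381) after the combination, -0.63 ± 0.15 (adjusted p = 0.0071) after panobinostat and -0.25 ± 0.13 (adjusted p = 0.281) after CBL0137. Chek2 (chr5:110839979-110874145), the kinase that ATM activates and a gene with an E2F word in its promoter, was at 18.7, 15.7 and 13.2 TPM after vehicle, 13.4, 8.17 and 7.63 after CBL0137, 11.7 and 13.7 after panobinostat, and 5.53, 6.07 and 6.32 after the combination. Here panobinostat and CBL0137 both overlapped vehicle, with CBL0137 replicates 2 and 3 well below it, and the combination lay below everything else. Chek2 fell by 1.26 ± 0.21 (SE, adjusted p = 0.000395) after the combination, and its values after CBL0137 and panobinostat were -0.68 ± 0.21 (adjusted p = 0.0813) and -0.29 ± 0.23 (adjusted p = 0.338). It was the only one of the 33 called between the combination and panobinostat.

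**Figure D3:**
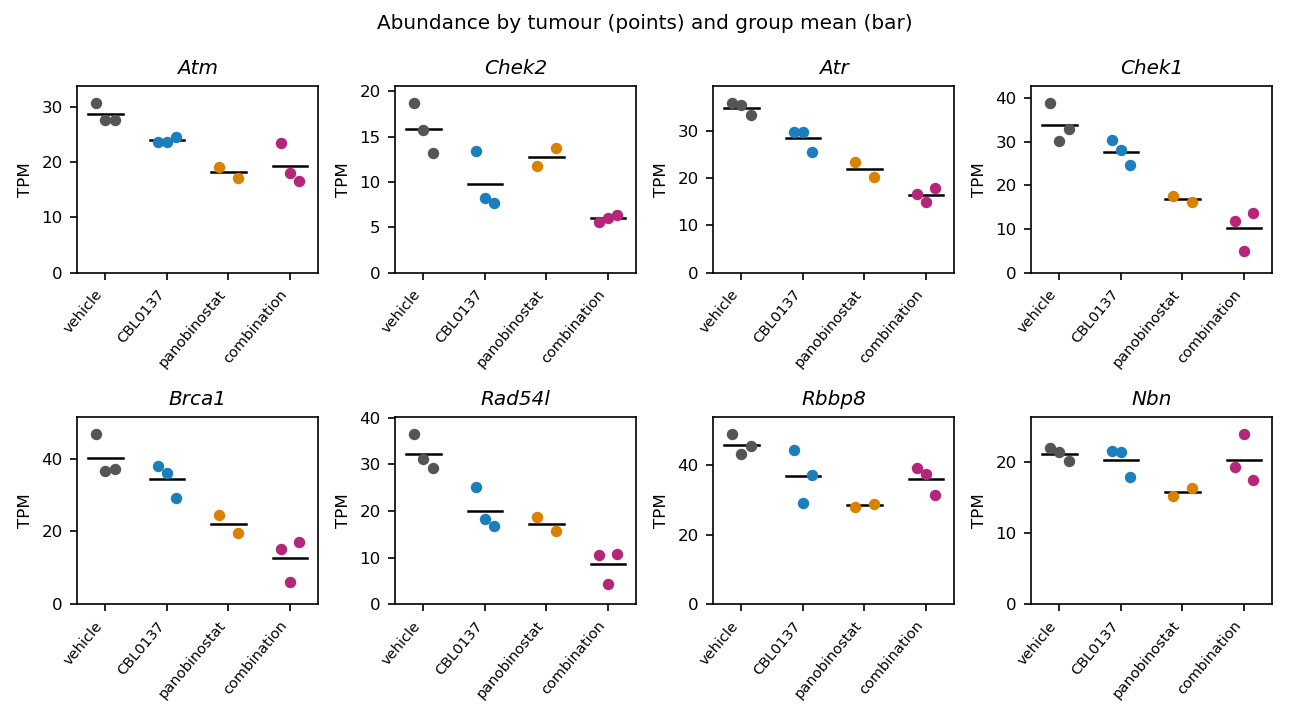
TPM of 8 genes in each tumour (points) with the group mean (bar), for vehicle, CBL0137, panobinostat and the combination, on axes that start at 0. Atr, Chek1, Brca1 and Rad54l are lowest in the combination, Chek2 is low there and in CBL0137 replicates 2 and 3, and Rbbp8 and Nbn are lowest after panobinostat.

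Of the 8 strand exchange genes, 7 fell after the combination (30.1% of all genes), with a median of -1.19. After panobinostat 1 of 8 fell, Xrcc2, a share (12.5%) below that of all genes (16.9%). Brca1 (chr11:101488764-101551955), whose product promotes resection and recruits PALB2, was at 46.7, 36.7 and 37.1 TPM after vehicle, 38.1, 36.1 and 29.3 after CBL0137, 24.6 and 19.5 after panobinostat, and 15.04, 6.03 and 17.2 after the combination. CBL0137 overlapped vehicle, and panobinostat and the combination formed separate lower steps. Brca1 changed by -1.69 ± 0.31 (SE, adjusted p = 0.000759) after the combination, or -1.26 without combination replicate 2, and stood at -0.84 ± 0.34 (adjusted p = 0.0736) after panobinostat and -0.21 ± 0.31 (adjusted p = 0.707) after CBL0137. Brca2 (chr5:150522630-150570329), which acts on the resected single strand, had values of 24.3, 16.5 and 19.3 TPM after vehicle, 17.1, 15.3 and 13.3 after CBL0137, 19.7 and 15.04 after panobinostat, and 11.7, 5.85 and 11.4 after the combination. Only the combination was clear of vehicle, with a change of -1.02 ± 0.25 (SE, adjusted p = 0.00421), while panobinostat, at -0.19 ± 0.28 (adjusted p = 0.604), overlapped vehicle.

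Rad54l (chr4:116094264-116123690), the gene of a motor protein that helps the broken end pair with the donor strand, had the largest change of the 33 after the combination. It was at 36.4, 31.2 and 29.2 TPM after vehicle, 25.0, 18.3 and 16.8 after CBL0137, 18.8 and 15.7 after panobinostat, and 10.5, 4.25 and 10.8 after the combination. All treated libraries lay below vehicle, CBL0137 and panobinostat overlapped each other, and the combination was below both. Its change was -1.89 ± 0.29 (SE, adjusted p = 0.000253) after the combination, leaving 26.9% of the vehicle level on that scale, and -1.51 without combination replicate 2. After panobinostat it was -0.87 ± 0.32 (adjusted p = 0.0529) and after CBL0137 -0.67 ± 0.29 (adjusted p = 0.187).

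Rad51ap1, which stimulates strand pairing, was at 53.4, 41.5 and 50.7 TPM after vehicle, 45.4, 47.3 and 37.6 after CBL0137, 32.1 and 27.9 after panobinostat, and 19.2, 7.65 and 20.9 after the combination. It overlapped vehicle after CBL0137 and lay below it after the other treatments, with a change of -1.65 ± 0.30 (SE, adjusted p = 0.000741) after the combination. Xrcc2, which acts in strand exchange, was at 19.1, 13.4 and 14.97 TPM after vehicle, 10.6, 12.1 and 9.59 after CBL0137, 11.4 and 7.74 after panobinostat, and 6.51, 4.46 and 6.76 after the combination. All treated libraries were below vehicle, with changes of -1.29 ± 0.20 (SE, adjusted p = 0.000316) after the combination and -0.68 ± 0.23 (adjusted p = 0.0358) after panobinostat. Bard1, the obligate partner of BRCA1, and Palb2, the bridge to BRCA2, fell by 1.09 and 0.91 after the combination (adjusted p = 0.0088 and 0.00188), Bard1 by 0.70 without combination replicate 2. Xrcc3 was the exception, at -0.07 ± 0.28 (SE, adjusted p = 0.836) after the combination, with libraries of 3.53 to 8.45 TPM after vehicle and 4.44 to 6.11 after the combination.

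In the Fanconi anaemia pathway 8 of 11 genes fell after the combination (30.1% of all genes), with a median of -0.75. After panobinostat 2 of 11 fell, Fancb and Fancm, a share (18.2%) near that of all genes (16.9%). Fancm encodes the translocase that anchors the pathway to chromatin, and it moved furthest. It was at 28.7, 25.0 and 27.5 TPM after vehicle, 22.03, 20.3 and 18.3 after CBL0137, 15.9 and 10.9 after panobinostat, and 8.66, 5.30 and 10.4 after the combination. The 4 groups did not overlap. Fancm fell by 1.66 ± 0.22 (SE, adjusted p = 9.43e-05) after the combination and by 0.98 ± 0.24 (adjusted p = 0.00928) after panobinostat, and stood at -0.40 ± 0.22 (adjusted p = 0.282) after CBL0137. Fancb, a core complex subunit, was at 15.2, 11.2 and 13.9 TPM after vehicle, 7.88, 10.1 and 7.26 after CBL0137, 6.61 and 7.5 after panobinostat, and 5.62, 3.00 and 4.09 after the combination. Every treated library was below every vehicle library, and the combination was below both single drugs. The changes were -1.48 ± 0.21 (SE, adjusted p = 0.000159) after the combination, -0.83 ± 0.23 (adjusted p = 0.0176) after panobinostat and -0.62 ± 0.21 (adjusted p = 0.108) after CBL0137.

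Fancd2 and Fanci encode the pair that the core complex ubiquitinates at a crosslink. Fancd2 was at 30.2, 24.3 and 25.1 TPM after vehicle, 24.8, 22.1 and 17.2 after CBL0137, 20.6 and 13.8 after panobinostat, and 10.5, 4.07 and 12.5 after the combination. Fanci was at 19.9, 14.7 and 15.8 TPM after vehicle, 14.6, 15.7 and 12.1 after CBL0137, 14.3 and 12.2 after panobinostat, and 10.2, 3.39 and 7.59 after the combination. For both genes the combination lay below all other libraries, CBL0137 overlapped vehicle and panobinostat lay below it. Fancd2 fell by 1.57 ± 0.33 (SE, adjusted p = 0.00186) and Fanci by 1.24 ± 0.30 (adjusted p = 0.00398) after the combination, and by 1.13 and 0.85 without combination replicate 2.

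The core complex itself was split. Besides Fancb and Fancm, the subunits Fanca (-1.19 ± 0.31, SE, adjusted p = 0.00651), Fancc (-0.71 ± 0.16, adjusted p = 0.00241) and Fancf (-0.75 ± 0.26, adjusted p = 0.0287) fell after the combination. Without combination replicate 2 Fanca fell by 0.78, and the call for Fancf was lost without that library, combination replicate 1 or vehicle replicate 3. Fancl, the ubiquitin ligase of the complex, was at 12.6 to 15.8 TPM after vehicle and 12.7 to 14.8 after the combination, a change of -0.10 ± 0.15 (SE, adjusted p = 0.589). Fancg, at 6.77 to 8.41 TPM after vehicle and 7.24 to 7.72 after the combination, changed by -0.05 ± 0.18 (SE, adjusted p = 0.834), and Fance by -0.28 ± 0.16 (adjusted p = 0.141). The libraries of Fancl and Fancg overlapped vehicle in every treated group. With quantile normalization, which moved the median of all genes to -0.26, 32 of the 33 genes were called lower after the combination, Fancl, Fancg, Fance and Xrcc3 among them. Brip1, a helicase that binds BRCA1, fell by 0.75 ± 0.24 (SE, adjusted p = 0.0204) after the combination, a call lost without vehicle replicate 1 or 3 or combination replicate 2.

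The nucleases and end processing genes were the most divided, with 5 of 9 called lower after the combination (30.1% of all genes) and a median of -0.37. Blm encodes the helicase that dissolves joined DNA molecules. It was at 53.8, 40.9 and 47.7 TPM after vehicle, 41.9, 38.2 and 30.6 after CBL0137, 29.8 and 24.9 after panobinostat, and 16.4, 6.81 and 18.4 after the combination. The combination was lowest without overlap, at -1.80 ± 0.30 (SE, adjusted p = 0.000412), or -1.39 without combination replicate 2, and panobinostat lay below vehicle at -0.77 ± 0.33 (adjusted p = 0.087). Exo1, which carries out long-range resection, was at 31.7, 26.1 and 27.1 TPM after vehicle, 25.4, 22.8 and 19.2 after CBL0137, 17.7 and 13.7 after panobinostat, and 9.72, 3.44 and 13.0 after the combination. All treated libraries were below vehicle, and the combination fell by 1.74 ± 0.35 (SE, adjusted p = 0.00136), or 1.25 without combination replicate 2. Eme1, the partner of the MUS81 nuclease, was at 28.1, 24.0 and 21.2 TPM after vehicle, 22.3, 20.6 and 17 after CBL0137, 17.3 and 14.4 after panobinostat, and 11.4, 3.16 and 12.0 after the combination. Only CBL0137 overlapped vehicle, and the combination fell by 1.53 ± 0.37 (SE, adjusted p = 0.00417), or 1.00 without combination replicate 2. Mus81 itself fell by 0.37 ± 0.14 (SE, adjusted p = 0.0401) after the combination, a call lost without vehicle replicate 2 or 3, CBL0137 replicate 1 or 2, or combination replicate 1 or 2.

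Among the genes that begin resection, Mre11a followed the common order of the groups, and Rad50, Nbn and Rbbp8 did not. Mre11a, the nuclease of the end-sensing MRN complex, was at 24.6, 19.7 and 19.3 TPM after vehicle, 18.0, 16.8 and 17.1 after CBL0137, 16.5 and 12.8 after panobinostat, and 15.3, 11.8 and 14.6 after the combination. All treated libraries lay below vehicle, with changes of -0.51 ± 0.17 (SE, adjusted p = 0.0325) after panobinostat and -0.57 ± 0.15 (adjusted p = 0.00619) after the combination. The other MRN subunits, Rad50 and Nbn, were not called, at -0.21 ± 0.13 (SE, adjusted p = 0.181) and -0.07 ± 0.13 (adjusted p = 0.646) after the combination. Nbn was at 21.9, 21.4 and 20.1 TPM after vehicle, 15.2 and 16.3 after panobinostat and 19.3, 23.9 and 17.4 after the combination, so that panobinostat lay below both. Rbbp8 encodes CtIP, which starts resection with MRE11. It was at 48.8, 43.2 and 45.5 TPM after vehicle, 44.4, 29.2 and 37.2 after CBL0137, 28.1 and 28.9 after panobinostat, and 39.1, 37.3 and 31.5 after the combination. Panobinostat was lowest without overlap, and the combination lay above it and below vehicle. Rbbp8 fell by 0.67 ± 0.16 (SE, adjusted p = 0.00941) after panobinostat, and stood at -0.34 ± 0.15 (adjusted p = 0.0611) after the combination. Slx4, the nuclease scaffold, was at -0.24 ± 0.21 (SE, adjusted p = 0.336) after the combination.

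The combination was also set against each single drug. Against CBL0137 alone, 20 of 33 genes were lower and 0 higher, beside 23.7% of all genes lower and 33.2% higher, with a median of -0.70 against 0.12 for all genes. Of these 20 calls, 13 held whichever library was left out. They were 4 of 5 kinases and checkpoint genes, 6 of 8 strand exchange genes, 7 of 11 Fanconi genes and 3 of 9 nucleases, and Atm, at -0.31, was the kinase not called. Against panobinostat alone, 1 of 33 was lower and 0 higher, beside 4.3% of all genes lower and 6.24% higher. This was Chek2, at -0.97 ± 0.23 (SE, adjusted p = 0.0336), a call lost without vehicle replicate 2 or 3, without either panobinostat library and without combination replicate 1 or 2. The median of the 33 was -0.61, against -0.02 for all genes, and 18 of 33 were lower at an unadjusted p below 0.05 (16.4% of all genes). Without combination replicate 2 this median was -0.34. Without combination replicate 3, 12 of 33 were called lower than after panobinostat, while the number over all genes went from 667 to 1792. Without CBL0137 replicate 3, 2 of 33 were called lower.

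Panobinostat and CBL0137 alone were not separated by limma for any of the 33 genes, with 0 called in either direction beside 6.81% of all genes lower after panobinostat and 12.1% higher. At an unadjusted p below 0.05, 4 were lower and 0 higher after panobinostat, beside 13.5% and 22.1% of all genes. The count called lower was 6 without combination replicate 2 and 1 without CBL0137 replicate 3 or combination replicate 1. Over all genes it went from 1056 to 1445 without combination replicate 2, to 1299 without CBL0137 replicate 3 and to 918 without combination replicate 1. The interaction, by which the joint change departs from the single changes added together, was called for 0 of 33 genes and for 0% of all genes. Its median was -0.27 over the 33 and -0.02 over all genes, and that of the 33 was -0.09 without combination replicate 2, -0.12 without panobinostat replicate 1 and -0.46 without panobinostat replicate 3. At an unadjusted p below 0.05, 1 of 33 was above 0 and 0 below, beside 5.28% and 5.25% of all genes. It was Rbbp8, at 0.64 ± 0.22 (SE, adjusted p = 0.378). The smaller panobinostat set leaned on single libraries. Its 9 calls against vehicle became 2 (Atr and Rbbp8) without panobinostat replicate 3, 4 without vehicle replicate 1, 5 without vehicle replicate 3 and 17 without combination replicate 2. Atr and Rbbp8 were the only ones of the 9 called whichever library was left out, and Chek1 lost its call when any 1 vehicle or panobinostat library was left out. For CBL0137 against vehicle, Chek2 was called without CBL0137 replicate 1 and Rad54l without combination replicate 2.

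Partners that work as a complex, and Chek2 with Atm, whose product activates CHK2, were compared within each tumour. The measure was the ratio of their TPM, which does not depend on the library total. The pairs were chosen with the values known, so the ratios are a description without a test. The Fancb to Fancl ratio was 0.960, 0.886 and 0.881 after vehicle, 0.403, 0.657 and 0.492 after CBL0137, 0.417 and 0.586 after panobinostat, and 0.381, 0.237 and 0.303 after the combination. All treated tumours lay below vehicle. The Mre11a to Rad50 ratio was 1.203 to 1.217 after vehicle and 1.195 to 1.278 after CBL0137, and lower, at 0.857 to 0.926 and 0.823 to 1.05, after panobinostat and the combination. Brca1 to Bard1 was 2.64 to 2.78 after vehicle, 2.90 to 3.32 after CBL0137, 1.95 to 2.29 after panobinostat and 1.79 to 1.91 after the combination, so it was higher than vehicle in the first treated group and lower in the others. Eme1 to Mus81 was 1.27 to 1.98 after vehicle, 1.083 to 1.405 after CBL0137, 1.003 to 1.013 after panobinostat and 0.270 to 1.02 after the combination. CBL0137 overlapped vehicle here, and panobinostat and the combination lay below it. Chek2 to Atm was 0.478 to 0.609 after vehicle, 0.310 to 0.567 after CBL0137, 0.613 to 0.800 after panobinostat and 0.235 to 0.382 after the combination, so panobinostat and the combination lay on opposite sides of vehicle. Brca2 to Palb2, at 1.70 to 2.25 after vehicle and 1.75 to 2.06 after the combination, overlapped vehicle in all groups. Nbn to Rad50 and Rbbp8 to Mre11a did so as well, and further pairs that were computed are not given.

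**Figure D4:**
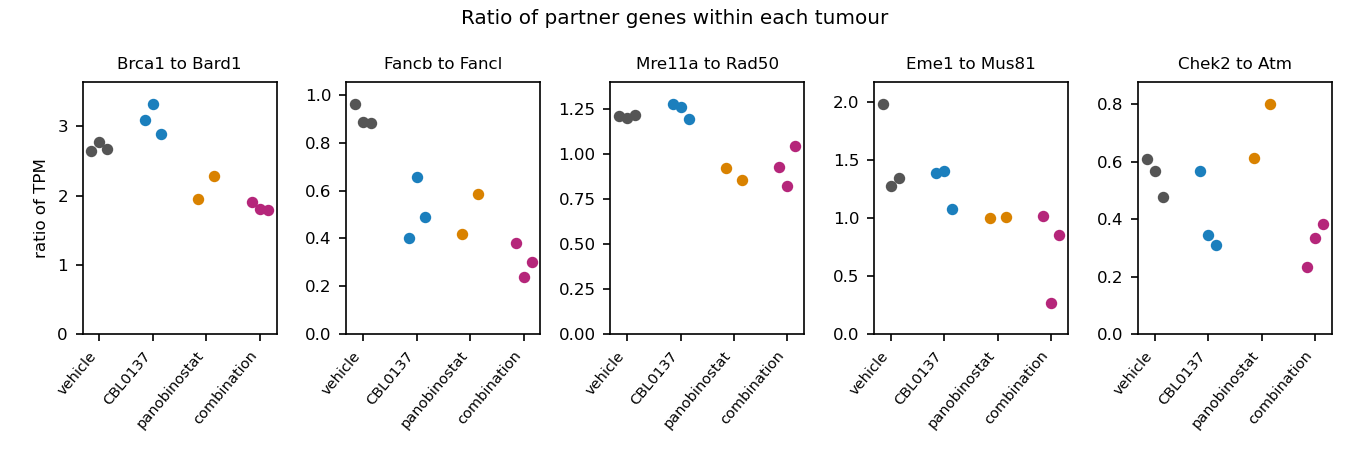
Ratio of the TPM of 2 partner genes within each tumour (points) for 5 pairs, by group, on axes that start at 0. Fancb to Fancl is lower than vehicle in every treated tumour, while Chek2 to Atm is above vehicle after panobinostat and below it after the combination.

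The rest of the pathway was read in gene lists that do not include the 33. Over all genes, 30.1% fell and 35.9% rose after the combination, with a median of 0.08. Of 32 other homologous recombination genes, 16 fell and 4 rose after the combination, with a median of -0.49. Rpa3 and Rpa1, subunits of the single-strand binding complex, fell by 1.75 ± 0.17 (SE, adjusted p = 2.15e-05) and 0.81 ± 0.10 (adjusted p = 7.56e-05), whereas Zswim7, which with SWSAP1 supports recombination, rose by 1.13 ± 0.15 (SE, adjusted p = 9.57e-05) and was the only one of the 32 to change after CBL0137, at 0.72. The other genes that rose, named after their values were seen, were Rmi1 (0.88), Rad51d (0.69) and Wrn (0.54). Of 9 other Fanconi genes 6 fell and 0 rose, among them Usp1 (-1.44 ± 0.16, SE, adjusted p = 4.3e-05) and Ube2t (-2.29 ± 0.29, adjusted p = 8.4e-05), the enzymes that remove and attach ubiquitin on FANCD2, and Apitd1 (-1.52 ± 0.25, adjusted p = 0.000409). Of 28 other checkpoint genes 22 fell and 2 rose, with a median of -0.84. Cdc25c, the phosphatase that CHK1 holds back, fell by 2.97 ± 0.34 (SE, adjusted p = 4.57e-05), Rif1, which limits resection, by 1.099 ± 0.13 (adjusted p = 5.16e-05) and the ubiquitin ligase gene Rnf8 by 1.11 ± 0.15 (adjusted p = 0.000101). The 2 that rose, Bre (0.75) and Uimc1 (0.70), named after their values were seen, encode subunits of a BRCA1 complex at damaged chromatin.

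Breaks can also be joined without a template, and 10 of 16 end joining genes fell and 4 rose after the combination, with a median of -0.60. The shares of all genes that fell and rose were 30.1% and 35.9%. Xrcc6, which encodes KU70, fell by 1.29 ± 0.12 (SE, adjusted p = 1.89e-05), Parp1 by 1.40 ± 0.17 (adjusted p = 5.57e-05) and Lig3 by 1.01 ± 0.13 (adjusted p = 7.18e-05). The genes that rose, named after their values were seen, were Poll (1.00), Dclre1c (0.98), Polm (0.91) and Xrcc4 (0.53). After panobinostat, 9 fell and 1 rose in the recombination list, and 4 and 0 in the Fanconi list. In the checkpoint list 13 fell and 1 rose, and in the end joining list 5 and 2. Of all genes, 16.9% fell and 25.5% rose after panobinostat. After CBL0137 the only call besides Zswim7 in these lists was Hus1, a subunit of the checkpoint clamp, at -0.48.

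Genes of DNA replication and mitosis had larger median changes than the 33 genes after the combination and after panobinostat. After the combination all 24 replication licensing and polymerase genes fell, with a median of -1.54, and all 18 mitotic genes, with a median of -2.16. Of all genes, 30.1%, 16.9% and 1.13% fell after the combination, panobinostat and CBL0137. After panobinostat 13 of 24 and 9 of 18 fell, and after CBL0137 0 of each. In every CBL0137 library, though, all 18 mitotic genes lay below the vehicle mean. Their medians were -0.31, -0.56 and -1.07 in CBL0137 replicates 1, 2 and 3, and -0.99 in both panobinostat libraries. Gins4, Orc6 and Tyms, for replication, fell by 1.03, 1.63 and 1.86 after the combination (adjusted p = 2.71e-05, 5.82e-05 and 8.71e-05), and the mitotic genes Cenpf, Cenpe and Ccnb2 by 2.12, 1.99 and 2.02 (adjusted p = 5.31e-05, 8.73e-05 and 9.36e-05). Mki67, the proliferation marker, was at 408, 281 and 325 TPM after vehicle, 260, 235 and 166 after CBL0137, 236 and 189 after panobinostat, and 112, 38.5 and 106 after the combination. Pcna, the replication clamp, was at 548, 518 and 532 TPM after vehicle, 544, 485 and 390 after CBL0137, 269 and 292 after panobinostat, and 251, 155 and 258 after the combination. Both were lowest in combination replicate 2. In that library the median difference from vehicle was -3.09 for mitotic genes, -2.18 for replication genes and -1.71 for neuroblast markers, against -1.31 for the 33 genes. Of its 13 neuroblast markers 8 lay below the vehicle mean. Their sum there was 1799 TPM, the highest of the group, against 907 and 1487 in combination replicates 1 and 3. The part of proliferation in the results for the 33 genes was not tested.

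**Figure D5:**
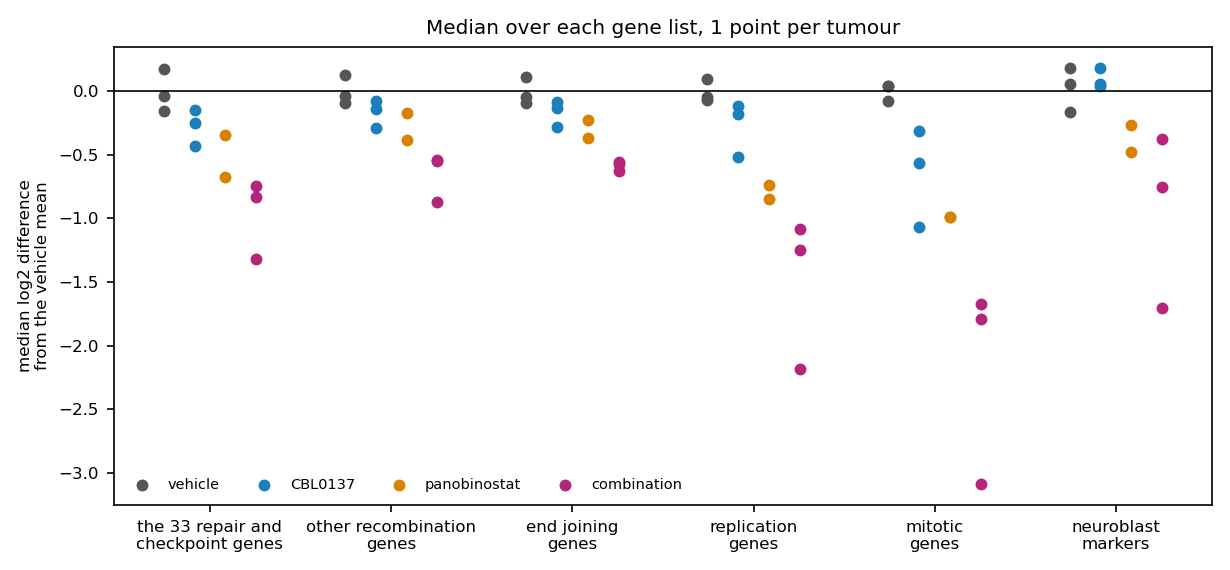
Median difference of log2(TPM + 1) from the vehicle mean over each gene list, with 1 point per tumour, for the 33 genes, other recombination genes, end joining genes, replication genes, mitotic genes and neuroblast markers. For the 33 genes the combination points are -0.83, -1.31 and -0.75, and for mitotic genes they are -1.67, -3.09 and -1.79.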

How the data were processed

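Stranded total RNA of flash-frozen tumours was sequenced after ribosomal depletion, per the labels' protocols. The authors deposited TPM values, made with STAR, SAMtools and RSEM on mm10, per the submitters' processing notes. Neither the versions and settings nor the annotation are given in the sources used here. TPM carry no depth, so counting error is unknown, and they are relative to each library's total. All value columns matched a labelled sample.

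A gene was tested if 2 or more libraries held 1 TPM or more of it, which left 15497 and removed 8914. On log2(TPM + 1), limma 3.58.1 in R 4.3.3 fitted 4 group means over 11 libraries (7 residual degrees of freedom, eBayes with trend). Tests were 2-sided, with Benjamini-Hochberg adjustment over all tested genes. P-values measure the spread between these mice. Where leaving out a library left panobinostat with 1, its spread was taken from the other groups.

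The members and lists were chosen with earlier results of these data known. Library values are printed for Atm, Atr, Chek1, Chek2, Brca1, Brca2 and the 4 called genes of each role with the largest combination change. Nbn, Rbbp8, Xrcc3, Fancl and Fancg were added after their values were seen. From other lists, the 3 genes with the lowest adjusted p are named, plus Mki67, Pcna and Cdkn1a. The settings also tried were a pseudocount of 0.1 or 5, no filter, a 5 TPM filter, TMM factors (trimmed mean of M values, coded from the published formula), quantile normalization, totals without small structural RNA and histone genes, a replicate block, array weights and leaving out each library. On simulated data of 15497 genes the combination comparison recovered 55.2% of genes changed by 1 log2 unit and 16.4% of those changed by 0.5. For CBL0137 against vehicle these shares were 41.8% and 14.9%, and for panobinostat against vehicle 38.8% and 10.4%. Far fewer genes were changed there than limma called in the data, so the shares do not give the sensitivity of the tests above. Coordinates are from GENCODE M21 on GRCm38.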

Additional observations from a re-analysis of the deposited data

How the results depend on the processing

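The 33 genes gave 0 calls higher in any comparison under all 9 other settings and all 11 fits that left out a library. The combination against vehicle, 25 lower, had 22 to 25 without single libraries, 28 with TMM factors, 32 with quantile normalization, 27 with rescaled totals and 26 with array weights. Quantile normalization added Fance, Fancg, Fancl, Rad50, Rbbp8, Slx4 and Xrcc3. Against CBL0137, 20 were lower, 14 to 22 without single libraries, and 24, 27, 23 and 24 under those settings. Panobinostat against vehicle, 9 lower, gave 14 with quantile normalization, 15 with array weights and 2 to 17 without single libraries. CBL0137 against vehicle, 0 lower, gave 6 with array weights and 0 to 1 without single libraries. The combination against panobinostat, 1 lower, gave 2 with a 5 TPM filter, 2 with TMM factors, 9 with quantile normalization, 3 without small structural RNA and histone genes in the totals, and 0 to 12 without single libraries. Panobinostat against CBL0137, 0 lower, gave 1 with TMM factors, 2 with quantile normalization, 4 with array weights and 0 to 6 without single libraries. The numbers over all genes moved too. With array weights, genes called lower after CBL0137 went from 175 to 2058, and those lower after panobinostat than after CBL0137 from 1056 to 1703. With quantile normalization, genes lower after the combination went from 4666 to 6678 against vehicle and from 667 to 1825 against panobinostat. For panobinostat against vehicle they went from 2613 to 3960, and to 3042 with array weights. The causes were not tested.

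Quantile normalization moved the median of all genes after the combination from 0.08 to -0.26 and after panobinostat from 0.10 to -0.18, and the share of called genes that rose from 54.4% to 38.4% and from 60.2% to 38.2%. The medians of the 33 genes became -1.43 and -0.73. With totals rescaled, the share that rose among genes called between the combination and panobinostat went from 59.2% to 34.2%.

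Deviations from the group means were correlated between same-numbered libraries of different groups. The correlations were -0.26 to 0.19 in 15 pairs, with 1 of 11 libraries closest to one of its own number. Such deviations sum to 0 within a group, and those of the panobinostat libraries mirror each other. The correlations are therefore partly fixed, and pairing was not tested. With the replicate block, 0 genes were lower than after panobinostat, and 12, 23 and 19 were lower for panobinostat and the combination against vehicle and the combination against CBL0137.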

Other observations

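Targets of the p53 protein, which ATM, ATR and the checkpoint kinases activate, went the other way from most repair genes. Of 21 measured targets, 14 rose and 1 (Aen, -0.39) fell after the combination, with a median of 1.18. After panobinostat 11 rose and 1 fell, and after CBL0137 3 rose and 0 fell. Beside these, 35.9%, 25.5% and 4.99% of all genes rose after the combination, panobinostat and CBL0137, and 30.1%, 16.9% and 1.13% fell. The median difference of the 21 from the vehicle mean was 0.15, 0.23 and 0.91 in CBL0137 replicates 1, 2 and 3. Replicate 3 is the library with 164.9 TPM of B cell markers. Cdkn1a, which encodes the cell cycle inhibitor p21, was at 6.47, 4.56 and 3.86 TPM after vehicle, 15.8, 15.9 and 47.5 after CBL0137, 23.5 and 23.5 after panobinostat, and 48.8, 55.7 and 63.5 after the combination. All treated libraries lay above vehicle. Its changes were 2.03 (adjusted p = 0.0107), 2.06 (adjusted p = 0.00322) and 3.27 (adjusted p = 3.6e-05) in the same order. Phlda3, Pmaip1 and Gdf15 rose by 2.34 ± 0.21 (SE, adjusted p = 1.32e-05), 2.98 ± 0.28 (adjusted p = 1.73e-05) and 3.16 ± 0.30 (adjusted p = 1.81e-05) after the combination. Mdm2, the gene of the ligase that degrades p53, was named after its values were seen. It was at -0.14 after CBL0137 and -0.30 after panobinostat, neither called, and rose by 0.35 ± 0.12 (SE, adjusted p = 0.0273) after the combination.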
